A study of Mus musculus with 4 samples.

Results

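The genes described here encode the constitutive proteasome and the proteins that share its gene names. They were chosen by a rule on gene names, with earlier results of these data known. It takes every protein-coding gene of the deposited table whose symbol begins with Psma, Psmb, Psmc, Psmd or Psme and a number. Psmb8, Psmb9 and Psmb10 are left out. The rule gave 41 of 12390 listed genes. It matches 42 annotated genes, and Psmb11, the thymus form of a catalytic subunit, was not analysed here. Of the 41 genes, 31 encode subunits of the core particle or of its regulatory cap that are made in most cells. The label constitutive holds less well for the other 10. Psma8 is known as a testis form of a core subunit, Psmd5, Psmd9 and Psmd10 encode chaperones that help to assemble the cap, and Psme1, Psme2, Psme2b, Psme3 and Psme4 belong to families of alternative activators. Psmc3ip carries a subunit-like symbol but encodes a cofactor of meiotic recombination.

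The proteasome is the barrel-shaped protease that degrades proteins marked with ubiquitin in the cytosol and nucleus. Its core consists of outer rings of alpha subunits, which gate entry, and inner rings of beta subunits, of which Psmb5, Psmb6 and Psmb7 carry the catalytic sites. A cap of ATPases (Psmc genes) and non-ATPase subunits (Psmd genes) binds the ubiquitin chain, unfolds the substrate and threads it into the core. In blood cells Psmb8, Psmb9 and Psmb10 can replace the catalytic subunits and form the immunoproteasome. When proteasome activity falls short, the transcription factor encoded by Nfe2l1 is known to raise the subunit genes together. Hematopoietic stem cells are known for low protein synthesis and sensitivity to errors in protein quality.

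RNA came from about 5000 mouse bone marrow cells per library, sorted as Lin-, Sca-1+, c-Kit+, CD48- and CD150+ hematopoietic stem cells. The 2 control libraries, labelled WT, came from mice with floxed Ddx21 alleles and no Cre, and the 2 knockout libraries, labelled KO, from floxed mice that also carried CAG-CreERT2. CAG is a promoter active in most tissues, so the deletion need not be limited to blood cells. CreERT2 acts after tamoxifen, and the sources used here give neither its dosing and timing nor the age of the mice. The labels do not say whether libraries came from separate animals, so p-values rest on the spread between these libraries, which may be technical.

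Values are RPKM, reads scaled by transcript length and by library size, with SDs over n = 2 libraries per group. Fold changes are log2 of RPKM + 1, knockout minus control. SEs and Benjamini-Hochberg adjusted p-values came from limma over the 11742 genes averaging 1 RPKM or more, and adjusted p under 0.05 was called. The fit took the SE of each gene from a trend with level over all genes, not from that gene's own replicates. Whole reads recovered from the values summed to between 43198649 and 62853209 per library, and single members had between 267 and 28228 reads in a library. Ddx21, the targeted RNA helicase gene, was lower in both knockout libraries (log2 fold change -0.76, adjusted p = 0.158 by limma), short of the call.

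In the deposited values most of the cell marker lists differed between the genotypes without overlap. Summed over each marker list, 6 osteoblast markers lay between 258.4 and 444.5 RPKM in control and between 1567 and 6280 RPKM in knockout, and 6 neutrophil markers between 25155 and 25475 RPKM in control and between 9698 and 16003 RPKM in knockout. The 4 granule genes of myeloid progenitors lay between 43777 and 45982 RPKM in control and between 21660 and 32696 RPKM in knockout, and the 5 stem cell markers in the table between 41.4 and 50.7 RPKM in control and between 77.6 and 108.2 RPKM in knockout. The 3 megakaryocyte markers lay between 330.3 and 368.9 RPKM in control and between 473.9 and 756.9 RPKM in knockout, and the 3 B cell markers in the table between 17.9 and 21.8 RPKM in control and between 27.4 and 37.4 RPKM in knockout. The 4 erythroid markers overlapped between the groups, at 203.4 and 253.9 RPKM in control and 125.3 and 217.8 RPKM in knockout. The 4 gate genes Ly6a, Kit, Slamf1 and Cd48 lay between 168.2 and 196.2 RPKM in control and between 222.9 and 272.0 RPKM in knockout. In these values Ly6a, Kit and Slamf1 each stood higher in both knockout libraries than in both controls, while Cd48 overlapped. The factors that rescale each library by its median ratio were 0.9049 and 0.8609 in control and 0.9887 and 1.345 in knockout. Divided by these factors, the gate sum, Ly6a and Kit overlapped between the groups, so their separation depended on the scaling. The part of these shifts in the proteasome values was not tested, and fewer cells of a type cannot be told apart from less RNA per cell. All 4 gate genes were detected in every library, Cd48 included although the gate is CD48-, and none of the 3 T cell markers is analysed here.

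The promoter bases of 2 catalytic subunit genes are shown because the letters TGACNNNGC, the core of the antioxidant response element that factors of the Nfe2l1 family bind, occur in both. Each is the 250 bases before the RefSeq start site on GRCm38.p6, on the gene's strand, with that motif in capitals. Psmb5 lies at chr14:54617996-54618245 on the minus strand and Psmb6 at chr11:70525107-70525356 on the plus strand.
Psmb5: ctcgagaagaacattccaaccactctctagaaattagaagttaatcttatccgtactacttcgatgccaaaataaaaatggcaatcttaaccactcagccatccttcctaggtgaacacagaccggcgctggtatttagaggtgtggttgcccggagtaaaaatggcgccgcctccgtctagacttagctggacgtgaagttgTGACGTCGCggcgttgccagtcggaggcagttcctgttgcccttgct
Psmb6: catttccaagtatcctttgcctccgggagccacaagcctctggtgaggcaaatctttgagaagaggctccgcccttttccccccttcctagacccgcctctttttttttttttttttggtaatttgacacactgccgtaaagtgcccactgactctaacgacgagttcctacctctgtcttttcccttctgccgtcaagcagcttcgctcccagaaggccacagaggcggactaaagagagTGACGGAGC
The motif was searched on both strands, N being any base. It ends 38 bases before the Psmb5 start site and directly at the Psmb6 start site. Of the 34 members with a RefSeq promoter window 5 held it (14.7%), namely Psmb5, Psmb6, Psmc6, Psmd9 and Psmd12, against 11.5% of all 27025 genes with a window. The other 7 members, the catalytic gene Psmb7 among them, had no window here and were not searched. A match is a description of letters and not a binding site. These 5 genes had log2 fold changes from -0.09 to 0.43, and none was called.

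The catalytic subunits were close to level between genotypes in the deposited values. Psmb5 (chromosome 14, 54614119 to 54618022, GENCODE M21 on mm10), the chymotrypsin-like site, stood at 219.0 and 237.4 RPKM in control replicates 1 and 2 and at 222.2 and 206.9 RPKM in knockout replicates 1 and 2. The groups overlapped, with a log2 fold change of -0.09 (SE 0.17, 95% interval -0.41 to 0.24, adjusted p = 0.716 by limma). Psmb6 (chromosome 11, 70525367 to 70527858), the caspase-like site, stood at 234.3 and 242.4 RPKM in control and at 255.3 and 275.9 RPKM in knockout. Both knockout libraries lay above both controls, and the log2 fold change was 0.16 (SE 0.16, interval -0.17 to 0.48, adjusted p = 0.544 by limma). Psmb7 (chromosome 2, 38588036 to 38644087), the trypsin-like site, was the lowest of the core subunits apart from Psma8 at 27.0 and 28.3 RPKM in control and 29.4 and 31.0 RPKM in knockout. Its groups did not overlap either, and its log2 fold change was 0.12 (SE 0.22, interval -0.30 to 0.55, adjusted p = 0.702 by limma). The intervals leave room for changes of up to about these sizes in either direction. After each library was rescaled by its median ratio, Psmb5 stood at -0.47, Psmb6 at -0.23 and Psmb7 at -0.25, so these values depended on the scaling.

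**Figure D1:**
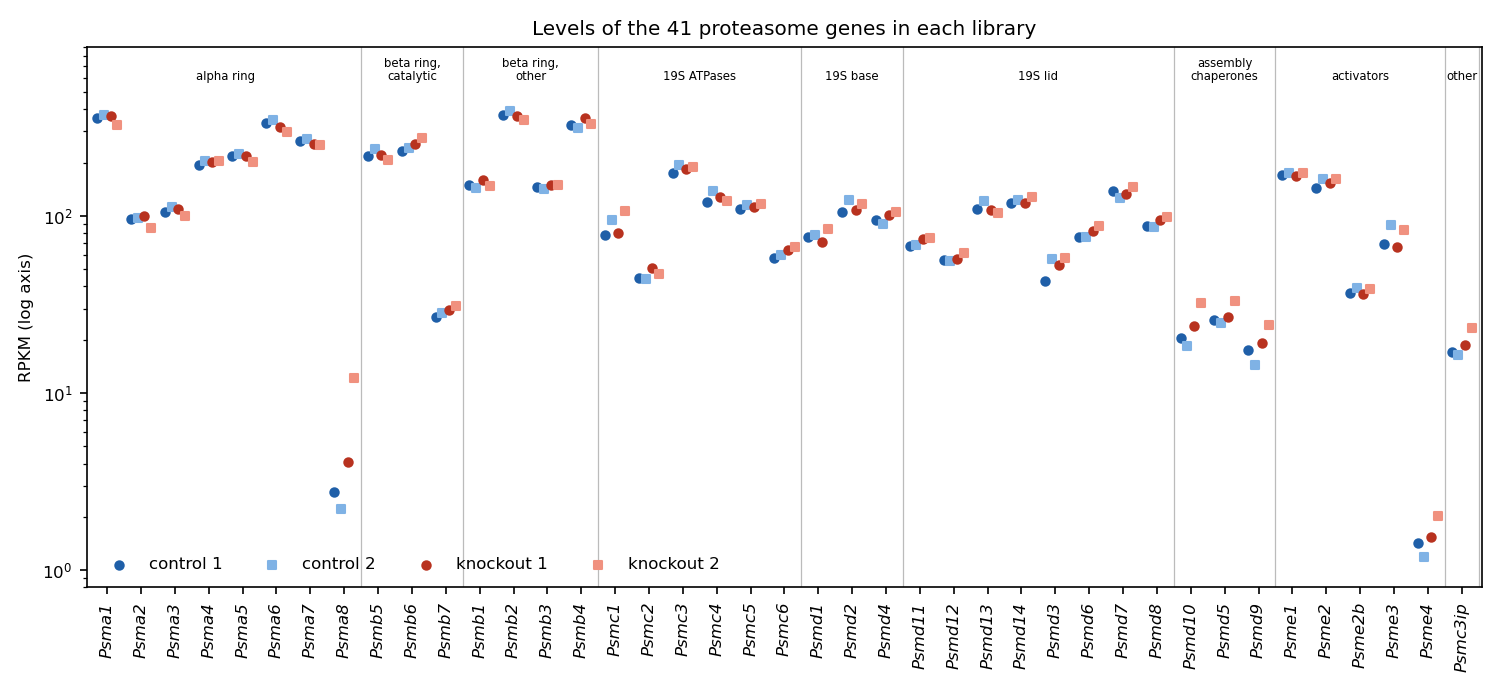
RPKM (log axis) of each of the 41 genes in each library, grouped by place in the complex; circles are replicate 1 and squares replicate 2 of control (blue) and knockout (red). For most genes the 4 points nearly coincide, while Psma8 reaches 12.1 RPKM in knockout replicate 2 from 2.20 and 2.75 RPKM in control.

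Across the whole set 1 of 41 genes was called higher, Psma8, and 0 were called lower, where limma called 3.33% of all tested genes higher and 0.86% lower. Without adjustment 2 members had p under 0.05 by limma, Psma8 and Psmd10, both higher. The share of all tested genes at that threshold is not given here, so this count is no result about the set. Over all tested genes 83.1% had a fold change above 0. Voom on recovered reads also called 1 member higher and 0 lower, where it called 3.09% and 0.707% of all tested genes. The median log2 fold change of the members was 0.06, against 0.31 for all tested genes, and 38 of 41 members lay below that median, as do 50% of all tested genes by construction. Relative to the control mean, all tested genes had a median of 0.12 in knockout replicate 1 and 0.50 in knockout replicate 2. The members had 0.03 and 0.07 there, so the shift over all genes lay mostly in knockout replicate 2. In 35 of 41 members (85.4%) the fold change was under 0.2 in size, against 26.7% of all tested genes. Both knockout libraries lay above both controls for 17 members and below them for 4, while over all tested genes these shares were 55.5% and 7.38%. The SE of a member's fold change ranged from 0.16 to 0.34, so small changes were not detectable.

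The level of a gene went along with its fold change in these data. All tested genes between 1 and 5 RPKM had a median log2 fold change of 0.34, those between 50 and 100 RPKM 0.10, those between 100 and 400 RPKM -0.05 and those above 400 RPKM -0.18. The 11 members between 50 and 100 RPKM had a median of 0.14 and the 21 members between 100 and 400 RPKM one of -0.01, each within 0.05 of genes at the same level. The 5 members between 20 and 50 RPKM lay further off, at 0.13 against 0.25 for all genes there. The 3 members between 5 and 20 RPKM had 0.43 against 0.35, and the 1 member below 5 RPKM, Psme4, had 0.26. After each library was rescaled by its median ratio the median of all genes was -0.01 and that of the members -0.32, so the direction of the members depended on the scaling. On rescaled values 33 of 41 members lay below both controls in both knockout libraries, against 29.2% of all tested genes. Genes between 100 and 400 RPKM stood at -0.43 on that scale and the members among them at -0.39. With quantile normalization, which aligns libraries at every level, the medians were 0.03 for the members and 0.01 for all genes.

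**Figure D2:**
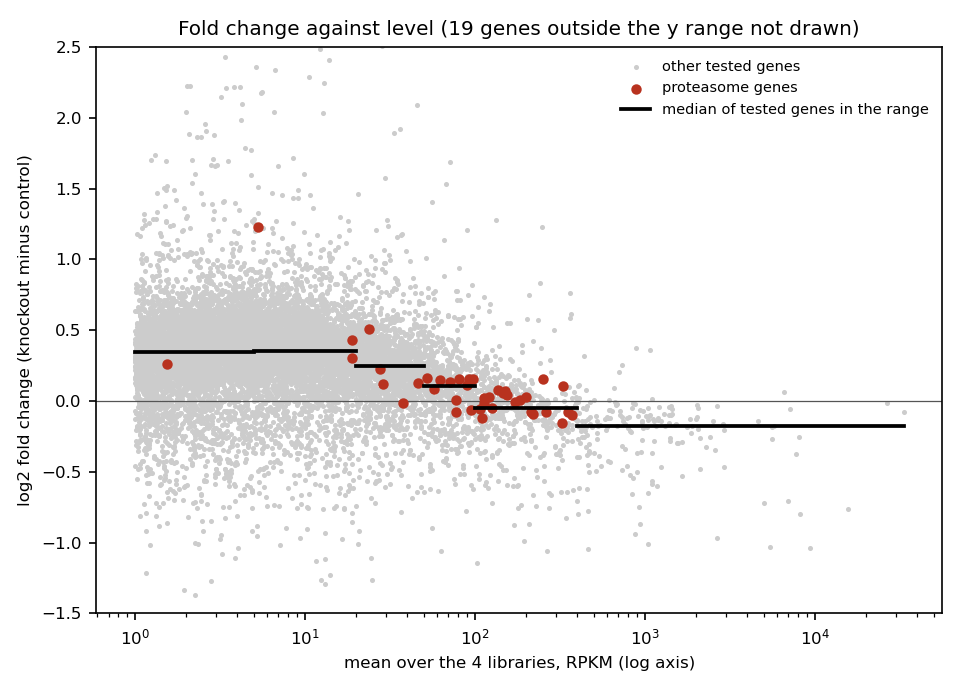
Log2 fold change (knockout minus control) against mean RPKM (log axis) for all tested genes (grey) and the proteasome genes (red); black bars are medians of all tested genes within ranges of level, and 19 genes outside the y range are not drawn. The black bars step down from 0.34 to -0.18 and most red points lie near the bar of their own range, with Psma8 well above it.

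Within the core, fold changes were slightly lower in the alpha ring than in the beta ring. The 7 alpha genes apart from Psma8 had log2 fold changes from -0.16 for Psma6 to 0.03 for Psma4, with a median of -0.08, and the 7 beta genes from -0.10 for Psmb2 to 0.16 for Psmb6, with a median of 0.07. None of these 14 was called, the smallest adjusted p being 0.541 for Psma6 by limma. After rescaling all 14 were negative, between -0.54 and -0.23. Psma6, an alpha subunit, stood at 335.8 and 348.8 RPKM in control and at 316.9 and 297.9 RPKM in knockout, without overlap. Psmb2, a beta subunit without a catalytic site, stood at 373.3 and 393.9 RPKM in control and at 368.3 and 348.7 RPKM in knockout, also without overlap. A ratio taken within a library does not depend on a single scaling factor for that library, but quantile normalization, which scales each level differently, can alter it. The summed alpha ring level was 1.07 and 1.09 times the summed beta ring level in control and 1.02 and 0.981 times in knockout. These groups did not overlap, and the two-sided exact permutation p of 0.33 is the smallest that 2 against 2 libraries allow.

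The subunits of one particle are present in equal numbers, but their RNA levels were not equal. Mean levels in the core, Psma8 aside, ran from 28.9 RPKM for Psmb7 to 371 RPKM for Psmb2, a 12.8-fold span, with Psma1 second at 355 RPKM. RPKM depends on the length assumed for each gene, here the longest annotated transcript, which is 2849 bases for Psmb7 against 1160 bases for its principal transcript. With principal transcript lengths Psmb7 stood at 71.0 RPKM and stayed last, Psma7 moved from the fifth place to the first at 434 RPKM, and the span was 6.11-fold.

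The cap showed the same small values. Of its 17 genes under these symbols 14 had a positive and 3 a negative log2 fold change, between -0.12 and 0.16 with a median of 0.08, and none was called. After rescaling all 17 were negative, between -0.51 and -0.22. Over all tested genes 83.1% had a fold change above 0 in the deposited values and 48.3% after rescaling. Among the 6 ATPase genes Psmc3 was highest and Psmc2 lowest in level, at 175.9 and 194.2 RPKM in control and 183.7 and 188.2 RPKM in knockout for Psmc3. Psmc2 stood at 44.6 and 44.3 RPKM in control and 50.5 and 46.8 RPKM in knockout, so that its groups did not overlap (log2 fold change 0.13, adjusted p = 0.667 by limma). Among the non-ATPase genes, which include the ubiquitin receptor Psmd4 and the deubiquitinating enzyme Psmd14, the lid subunit Psmd13 had the lowest fold change. It stood at 110.0 and 121.5 RPKM in control and at 107.9 and 104.2 RPKM in knockout (log2 fold change -0.12, SE 0.17, adjusted p = 0.635 by limma). Psmd7 was the highest of this class at 138.5 and 126.6 RPKM in control and 133.9 and 145.9 RPKM in knockout. Psmd3 was the lowest at 42.9 and 56.9 RPKM in control and 52.6 and 58.2 RPKM in knockout. In both cases the groups overlapped. Summed core levels were 1.95 and 1.90 times summed cap levels in control and 1.92 and 1.72 times in knockout, with overlap between the groups.

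**Figure D3:**
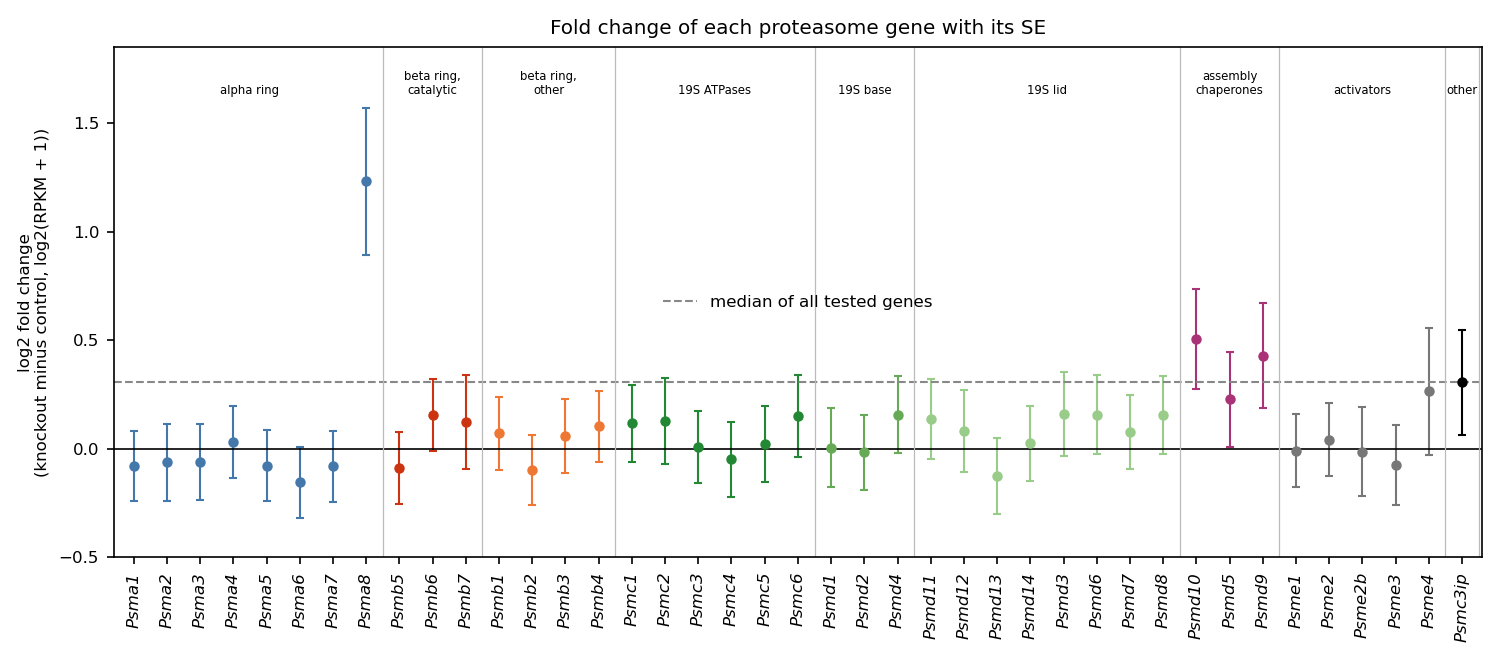
Log2 fold change (knockout minus control, log2(RPKM + 1)) of each gene with its SE from limma, colored by place in the complex; the dashed line marks the median of all tested genes, 0.31. Subunits of both rings and of the cap lie between -0.16 and 0.16, the 3 assembly chaperones between 0.23 and 0.51, and Psma8 at 1.23.

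The assembly chaperones had higher fold changes than the subunits they act on, but none was called. Psmd10, which encodes gankyrin, a chaperone of the ATPase ring, stood at 20.5 and 18.3 RPKM in control and at 24.0 and 32.4 RPKM in knockout (chromosome X, 140948429 to 140956728). Both knockout libraries lay above both controls, and the log2 fold change was 0.51 (SE 0.23, adjusted p = 0.246 by limma). Psmd9, another of these chaperones, stood at 17.4 and 14.3 RPKM in control and at 19.2 and 24.3 RPKM in knockout (log2 fold change 0.43, SE 0.24, adjusted p = 0.352 by limma). Psmd5 followed at 25.7 and 24.9 RPKM in control and 27.0 and 32.9 RPKM in knockout (0.23, adjusted p = 0.514 by limma). All 3 were highest in knockout replicate 2, where the median of all tested genes also lay 0.50 above the control mean on the log2 scale. All tested genes had a median log2 fold change of 0.35 between 5 and 20 RPKM, the range of Psmd9. Between 20 and 50 RPKM, the range of Psmd5 and Psmd10, it was 0.25. These are low-level genes by the standard of the complex, and after rescaling they stood at 0.14 for Psmd10, 0.06 for Psmd9 and -0.14 for Psmd5. The meiotic cofactor Psmc3ip, at a like level, had 17.0 and 16.3 RPKM in control and 18.6 and 23.4 RPKM in knockout (0.31, and -0.06 after rescaling).

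None of the 5 activator genes was called, and their median log2 fold change was -0.01, or -0.39 after rescaling. Psme1, a subunit of the interferon-inducible PA28 ring, stood at 170.2 and 175.0 RPKM in control and at 168.5 and 174.3 RPKM in knockout (log2 fold change -0.01, SE 0.17). Its partner Psme2 and the copy Psme2b had 0.04 and -0.01, with 99.4% identity over 794 bases between their transcripts, so their separate values are uncertain. Psme3, the nuclear PA28 form, had -0.07. Psme4, which encodes the activator PA200, was the lowest gene of the set at 1.42 and 1.19 RPKM in control and 1.53 and 2.02 RPKM in knockout. Both knockout libraries lay above both controls (0.26, interval -0.31 to 0.83, adjusted p = 0.557 by limma), and after rescaling the value was 0.03.

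Psma8 was the exception. This alternative alpha subunit (chromosome 18, 14706151 to 14762301) stood at 2.75 and 2.20 RPKM in control replicates 1 and 2, at 4.06 RPKM in knockout replicate 1 and at 12.1 RPKM in knockout replicate 2. Both knockout libraries lay above both controls and one of them far above, and the reads behind the values were 296, 267, 339 and 1013 in that order. Psma8 rose from 2.48 ± 0.389 to 8.08 ± 5.69 RPKM (SD, n = 2), or by 1.23 on the log2 scale (SE 0.34, adjusted p = 0.0108 by limma). The fit replaced each gene's own spread with a trend over all genes, so a gene whose replicates lie this far apart receives too small a p. The call was lost after rescaling (0.91, adjusted p = 0.268), with quantile normalization (0.89, adjusted p = 0.324) and with voom on rescaled reads (1.19, adjusted p = 0.198). Leaving out knockout replicate 2 gave 0.55 (adjusted p = 0.312), and without control replicates 1 and 2 it was 1.35 and 1.12 (adjusted p = 0.932 and 0.957). Without knockout replicate 1 it was 1.92 (adjusted p = 0.00802), in a setting where 54.3% of all tested genes were called higher and 5 of 41 members with them, namely Psma8, Psmd5, Psmd9, Psmd10 and Psmc3ip. Relative to Psma7, the alpha subunit whose place it takes in testis, Psma8 stood at 0.0104 and 0.00811 in control and at 0.0159 and 0.0479 in knockout.

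The balance between constitutive and immunoproteasome subunits was compared within each library. Psmb5 stood at 1.18 and 1.19 times its counterpart Psmb8 in control and at 1.24 and 1.18 times in knockout, a difference of 0.03 in log2 ratio. Psmb6 stood at 4.03 and 4.22 times Psmb9 in control and at 4.07 and 3.92 times in knockout, a difference of -0.05. Psmb7 stood at 0.312 and 0.308 times Psmb10 in control and at 0.330 and 0.271 times in knockout, also a difference of -0.05. The ratios rest on longest transcripts, 2849 bases for Psmb7 and 2884 bases for Psmb9, whose principal transcripts have 1160 and 1352 bases. The size of the ratios would change with those lengths, but the differences between genotypes would not. In all 3 pairs the groups overlapped, with two-sided exact permutation p-values of 1.0, 0.667 and 1.0 for n = 2 libraries per group. After quantile normalization the differences were 0.03 for Psmb5 to Psmb8, 0.19 for Psmb6 to Psmb9 and -0.25 for Psmb7 to Psmb10, so the last 2 depended on the scaling and the Psmb6 difference changed sign. The 3 immunoproteasome genes had log2 fold changes of -0.12 for Psmb8, 0.20 for Psmb9 and 0.18 for Psmb10, and none was called.

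**Figure D4:**
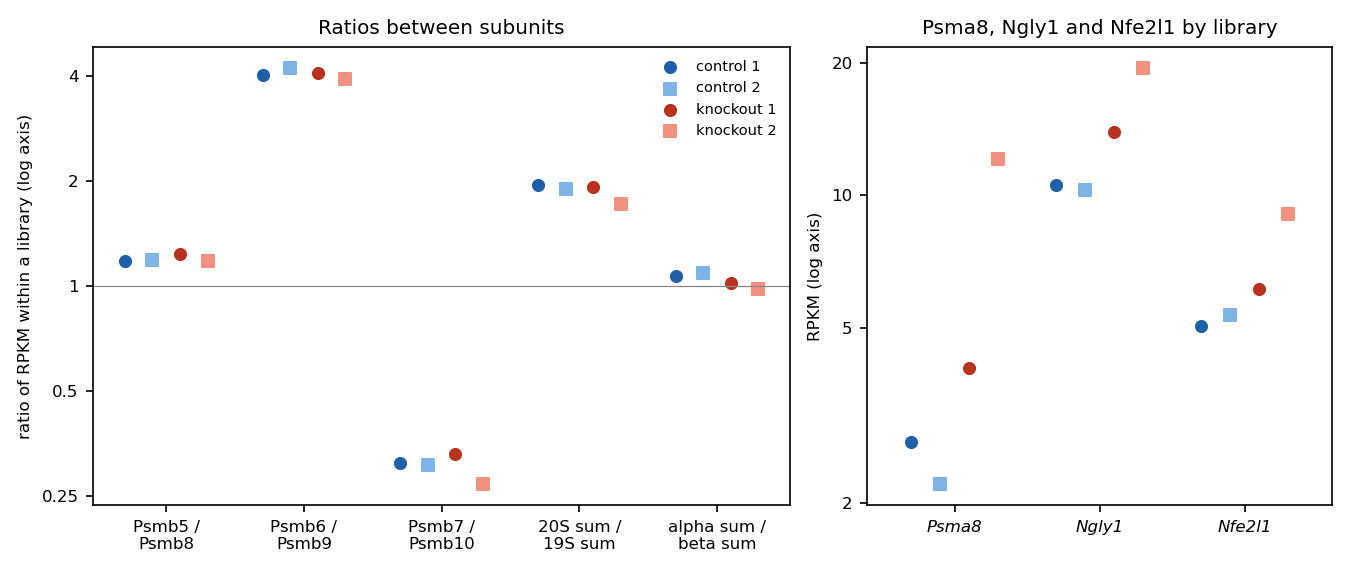
Left, ratios of RPKM within each library (log axis) for the 3 pairs of catalytic subunits and for summed levels; right, RPKM (log axis) of Psma8, Ngly1 and Nfe2l1 in each library, with circles for replicate 1 and squares for replicate 2. The catalytic ratios overlap between control (blue) and knockout (red), the alpha to beta ratio is 1.07 and 1.09 in control and 1.02 and 0.981 in knockout, and Ngly1 stands at 10.6 and 10.3 RPKM in control and at 14.0 and 19.5 RPKM in knockout.

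Other genes of the pathway were taken from lists of their roles. Of 8 genes listed around Nfe2l1, namely Nfe2l1, Nfe2l2, Keap1, Ddi2, Ngly1, Mafg, Maff and Mafk, 0 were called, and the median was 0.39. This list is wider than the route that activates Nfe2l1. The smallest p belonged to Ngly1, the deglycosylating enzyme that Nfe2l1 needs, at 10.6 and 10.3 RPKM in control and 14.0 and 19.5 RPKM in knockout (log2 fold change 0.62, SE 0.27, adjusted p = 0.219 by limma). Nfe2l1 itself had 5.04 and 5.33 RPKM in control and 6.11 and 9.06 RPKM in knockout (0.45, and 0.12 after rescaling). None of the 7 assembly and inhibitor genes in the table was called (median 0.34), Psmg4, an assembly chaperone of the core, having the smallest p (0.34, and -0.03 after rescaling). Nor was any of 8 other cap subunits and associated enzymes (median 0.14, smallest p for Zfand5 at 0.41) or of 9 shuttles and Vcp cofactors (median 0.19, smallest p for Nsfl1c at 0.26). After rescaling the medians of these last 3 lists were -0.04, -0.21 and -0.18. The Nfe2l1 list had a median of 0.03 with 6 of 8 genes above 0 (0.26 for Ngly1), against 48.3% of all tested genes. Most of that list lies between 1 and 20 RPKM. All tested genes between 1 and 5 RPKM had a rescaled median of 0.08, and those between 5 and 20 RPKM 0.005.

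Some values are uncertain because other genes share their sequence. Of the 41 members 14 matched a transcript of another annotated gene at 95% identity or more over at least 200 bases. Among these, Psmc3ip matched Mlx, Psmd13 matched Sirt3 and Psmd1 matched Gm21972, genes that overlap them in place and are not separate copies. The largest copy by level was Gm13835, a processed pseudogene identical to Psma3 over 665 bases and listed at a mean of 174 RPKM, so the level of Psma3 is uncertain. The copies of Psmb5 (Gm3375) and Psmb6 (Psmb6-ps2) were listed at 6.55 and 1.82 RPKM. Overlapping genes on the opposite strand add to this, since the sources used here do not name the strand setting of the counting. Psmb7 shares 405 exon bases with Nek6, Psmc3 215 with Slc39a13, Psmd13 342 with Sirt3, Psmc3ip 385 with Mlx and Psmd9 1849 with Gm26745. Psmd1 shares 252 with Htr2b, Psma4 114 with AY074887, Psma5 60 with 1700010K24Rik, Psmd3 17 with Gm12356 and Psme1 14 with Emc9. The values of all these members are uncertain to that extent.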

How the data were processed

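The authors deposited 1 table with an RPKM value per gene and library, a unit identified here from the values, and a gene without reads is listed at 0.001. Per the submitters' processing notes the build was mm10; the sources used here do not name the aligner, the counter or the strand setting. Symbols, coordinates and lengths came from GENCODE M21 (12381 of 12390 IDs matched). RPKM times the longest transcript length gave whole reads within 0.1 for 99.3% or more of values in each library. Replicates differed beyond sampling noise (chi-square per degree of freedom 48.5 for control and 150 for knockout) and were counted separately.

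Genes averaging 1 RPKM or more, all 41 members among them, were fitted as log2(RPKM + 1) in limma 3.58.1 (R 4.3.3), with genotype as the one term and variances moderated toward a trend. Its prior degrees of freedom were infinite, against 2 residual ones, so 95% intervals use 1.96 SE. Ratios within a library were compared by exact permutation (SciPy 1.17.1). Near copies were found with BLAST 2.17.0. Alternatives changed scaling, pseudocount, filter, variance model, tool, replicate block and libraries. Members, lists and tests were chosen with earlier results of these data known. Genes given with statistics were the catalytic subunits, called members, the 4 highest and 4 lowest fold changes, the highest and lowest level of each class, and per other list the called gene or the smallest p; others named, among them Nfe2l1, Psma4, Psme2, Psme2b and Psme3, were chosen after their values were seen. One list of pathway genes is not reported here.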

Additional observations from a re-analysis of the deposited data

How the results depend on the processing

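The call counts depended on scaling, variance model and libraries. Against 391 higher and 101 lower calls over all genes, 1 higher and 0 lower among the members and a member median of 0.06, median-ratio rescaling gave 0, 0, 0, 0 and -0.32, quantile normalization 0, 0, 0, 0 and 0.03, and voom on rescaled reads 20, 7, 0, 0 and -0.29. Of the settings with all 4 libraries, only voom on rescaled reads called Ddx21 lower (-1.24, adjusted p = 0.0408). A filter at 5 RPKM gave 235 higher, and limma without a trend 52 lower. With the replicate number as a replicate block there were 175 higher and 64 lower calls, 0 and 0 among the members, and the call of Psma8 (adjusted p = 0.149) was lost; differences between the numbered libraries correlated at 0.0668 between genotypes, and nothing in the labels says that a number pairs libraries. Leaving out a library gave 27 to 6381 higher and 5 to 526 lower calls, 0 to 5 higher among the members and member medians from -0.006 to 0.078; no member was called lower in any setting. The log2 ratio differences of the 3 catalytic pairs ranged from -0.192 to 0.091 when a library was left out; quantile normalization, tried for these ratios after seeing the data, gave 0.187 for Psmb6 to Psmb9 and -0.252 for Psmb7 to Psmb10.

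After median-ratio rescaling the members with a fold change above 0 went from 27 to 4, where all tested genes went from 83.1% to 48.3%. Among the genes named by the rule in the methods, those that changed sign, none of them called, were as follows. After median-ratio rescaling they were -0.119 for Nsfl1c, -0.206 for Psmb10, -0.229 for Psmb6, -0.249 for Psmb7, -0.181 for Psmb9, -0.250 for Psmc2, -0.375 for Psmc3, -0.061 for Psmc3ip, -0.216 for Psmd3, -0.144 for Psmd5, -0.305 for Psmd7 and -0.033 for Psmg4. With voom on rescaled reads the same 12 genes, in that order, stood at -0.104, -0.197, -0.204, -0.237, -0.161, -0.215, -0.347, -0.065, -0.190, -0.135, -0.284 and -0.052. With quantile normalization they were 0.048 for Psma1, 0.035 for Psmb2, -0.119 for Psmb7, -0.070 for Psmc2, -0.007 for Psmd3, -0.019 for Psmd5, 0.035 for Psme1 and -0.041 for Psme4. Leaving out a library gave ranges across 0 of -0.167 to 0.007 for Psma1, -0.004 to 0.355 for Psmb10, -0.063 to 0.079 for Psmc3, -0.038 to 0.362 for Psmd3 and -0.034 to 0.014 for Psme1. The cause was not tested. Read depth limits few of these values, and the 2 libraries a group limit all of them.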
